A study of Mus musculus with 8 samples.

Results

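Far intergenic regions with an ATAC-seq peak in all 4 bulk libraries numbered 5180 in formalin-fixed paraffin-embedded (FFPE) mouse spleen. They were chosen by peak presence and position. Peaks of the 4 bulk lists on chromosomes 1 to 19 were merged where they overlapped by 1 bp. A merged region was a member when it held a peak of every library, when its midpoint lay outside all protein-coding gene bodies, and when that midpoint was over 10 kb from any protein-coding transcription start site (TSS). Merging gave 58916 regions, of which 23022 were shared by all 4 libraries. Members were 22.5% of these shared regions, and 27.8% of the 18617 far intergenic regions called in any library. Because peak calls in the 4 lists chose the members, peak heights and widths below are descriptions and carry no test.

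The study asked whether reverse crosslinking, which releases DNA from formaldehyde-bound protein, improves ATAC-seq of FFPE tissue. Tn5 transposase cut open chromatin in nuclei of snap-frozen FFPE spleens (8-week-old C57BL/6J mice). In the single-cell assay it carried adaptors for barcoding. The paper's methods describe fixation and embedding of the spleens and no freezing step. The DNA was then purified with reverse crosslinking (+RV) or without it (−RV). In the bulk assay a cut sample was divided between both conditions. In the single-cell assay, per the paper, pooled nuclei were divided between both conditions after barcoding. Of 8 samples, 4 were bulk libraries (2 +RV and 2 −RV) and 4 were single-cell libraries with split-pool barcodes (2 +RV and 2 −RV). All groups shared the tissue, the strain and the genotype label C57BL/6J, and the replicates of a condition were described as technical, so the spread between them is not a spread between animals. Bulk lists held 47755 and 47864 peaks in the +RV libraries, against 32288 and 32736 in the −RV libraries. The single-cell fragments were pooled into 1 set per condition, whose condition was read from the same abbreviation that names the bulk lists, with 13703580 nuclear fragments from 18620 barcodes in +RV and 1592372 from 2406 barcodes in −RV. The sets shared 2 barcodes. Bulk read depth is unknown from the peak lists.

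Open chromatin far from genes is where distal enhancers, insulators and promoters of non-coding RNAs are found. Enhancers bind transcription factors and act on promoters over long distances, and most are used by only some cell types. In spleen, B cells, T cells, macrophages and erythroid precursors each keep their own set: PU.1 binds enhancers of myeloid and B cells, RUNX and TCF factors those of T cells, and GATA1 those of erythroid cells. CTCF marks insulators and loop anchors in most cell types. A nearest gene is given here only as a position label, since a distal region need not act on its nearest gene.

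The sequences below show 14 members that later results turn on, each as 100 bases of the RefSeq GRCm38.p6 (mm10) genome, forward strand, around the match of a known binding motif nearest the region midpoint. Each line is labelled by the nearest protein-coding gene and the motif, and capitals mark every match to that motif on either strand. The first pair lies in the β-globin locus control region. The next lines are members leaning to erythroid-like, T cell-like, macrophage-like, B cell-like, endothelial-like or pancreatic acinar-like barcodes, and the last pair shows a CTCF match and a GC box at a non-coding promoter.
Hbb-y, AP-1, chr7:103865977-103866076: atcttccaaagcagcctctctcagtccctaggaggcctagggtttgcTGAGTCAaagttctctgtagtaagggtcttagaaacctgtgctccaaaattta
Olfr66, GATA, chr7:103870808-103870907: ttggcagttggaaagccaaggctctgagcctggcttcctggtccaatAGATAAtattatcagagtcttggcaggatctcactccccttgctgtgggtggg
Runx1, GATA, chr16:93129592-93129691: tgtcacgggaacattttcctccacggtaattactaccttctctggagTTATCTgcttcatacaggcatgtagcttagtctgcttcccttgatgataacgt
Nos1ap, GATA, chr1:170610441-170610540: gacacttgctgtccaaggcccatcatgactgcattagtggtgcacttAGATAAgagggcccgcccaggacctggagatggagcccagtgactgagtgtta
Tcf7, RUNX, chr11:52314122-52314221: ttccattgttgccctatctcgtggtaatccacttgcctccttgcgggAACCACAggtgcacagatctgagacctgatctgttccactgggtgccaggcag
Lef1, RUNX, chr3:130947429-130947528: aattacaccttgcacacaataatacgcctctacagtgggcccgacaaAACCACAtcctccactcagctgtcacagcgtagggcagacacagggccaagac
Cd163, PU.1, chr6:124273302-124273401: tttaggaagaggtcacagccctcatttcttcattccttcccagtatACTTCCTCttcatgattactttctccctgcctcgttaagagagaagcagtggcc
Gsdmc, PU.1, chr15:63616935-63617034: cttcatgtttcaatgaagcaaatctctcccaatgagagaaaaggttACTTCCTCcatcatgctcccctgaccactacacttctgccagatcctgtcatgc
Ebf1, octamer, chr11:44574858-44574957: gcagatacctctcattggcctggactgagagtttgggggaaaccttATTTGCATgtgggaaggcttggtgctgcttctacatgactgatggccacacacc
Gm32742, ETS-IRF, chr9:51183536-51183635: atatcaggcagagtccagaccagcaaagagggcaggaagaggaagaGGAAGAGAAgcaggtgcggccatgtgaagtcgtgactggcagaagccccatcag
Prcp, AP-1, chr7:92950894-92950993: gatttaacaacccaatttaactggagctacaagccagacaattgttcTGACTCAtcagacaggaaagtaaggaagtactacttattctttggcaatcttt
Mycn, E-box, chr12:12810264-12810363: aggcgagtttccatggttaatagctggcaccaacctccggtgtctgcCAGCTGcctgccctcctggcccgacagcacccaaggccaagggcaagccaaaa
Klre1, CTCF, chr6:129559441-129559540: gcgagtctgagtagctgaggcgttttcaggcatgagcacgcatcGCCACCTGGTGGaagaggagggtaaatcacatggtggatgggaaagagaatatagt
Chd2, GC box, chr7:73558629-73558728: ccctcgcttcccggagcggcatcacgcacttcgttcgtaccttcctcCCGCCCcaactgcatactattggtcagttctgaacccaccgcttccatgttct

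Members were narrow. The median width was 654 bp (quartiles 516 and 867, range 273 to 2445), and together they covered 3.75 Mb. The median distance to the nearest protein-coding TSS was 43.3 kb (quartiles 21.6 and 95.7). Chromosome 10 held 448 members and chromosome 18 held 159, the highest and lowest numbers, and per Mb the range was 1.31 on chromosome 14 to 3.43 on chromosome 10.

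Peaks at members were taller and wider in +RV than in −RV libraries. Fold is the authors' ratio of the pile-up at a peak's summit over the local background in the same library. The median fold was 5 and 5.03 in the +RV libraries, against 4.47 and 4.43 in the −RV libraries. Means of these medians were 5.02 ± 0.0237 in +RV and 4.45 ± 0.0247 in −RV (SD, n = 2 libraries each), a difference of 0.566 that is larger than the spread between libraries. Median bases under peaks per member were 552 and 550.5 in +RV libraries and 423 and 440 in −RV libraries, a ratio of group means of 1.28. Under the same merged regions, +RV peaks covered 3.19 Mb in each library and −RV peaks 2.47 and 2.55 Mb. With 2 libraries against 2 no exact test can reach p = 0.05 (the smallest p is 0.333), so none was run. In bulk libraries a change in the share of nuclei that are open at a region and a change in accessibility per nucleus cannot be told apart.

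**Figure D1:**
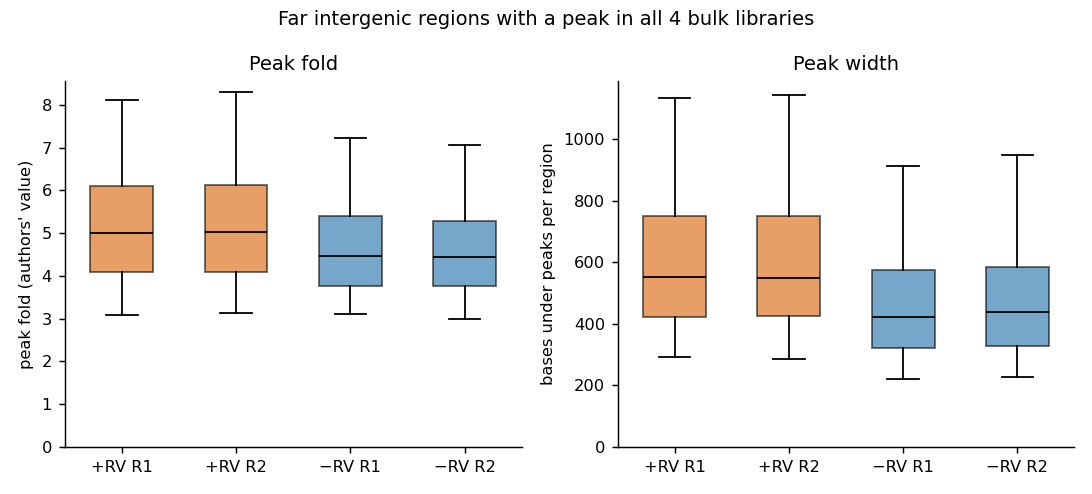
Authors' peak fold (left) and bases under peaks (right) at the 5180 far intergenic shared regions, by bulk library. Boxes span the quartiles with the median as a line and whiskers reach the 5th and 95th percentiles; the +RV medians of 5 and 5.03 lie above the −RV medians of 4.47 and 4.43, and the boxes overlap.

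Region by region, the fold of both +RV libraries lay above both −RV libraries at 2191 members (42.3%), against 43% of all 23022 shared regions. The opposite order was found at 464 members (8.96%), against 12.1% of all shared regions. Bases under peaks did not overlap between conditions, with +RV wider, at 2976 members (57.5%), against 66.1% of all shared regions. The reverse, with −RV wider, held for 186 members (3.59%), against 2.48% of all. The fold shares are near those of all shared regions and the share with wider +RV peaks is lower, so nothing particular to far intergenic regions is read from them. The median ratio of +RV over −RV fold per member was 1.11, with the 5th and 95th percentiles at 0.851 and 1.48. The fold of both +RV libraries lay above both −RV libraries at 48.5% of members with the most GC (over 52.2% in a 400-bp window). Among members with the least GC (up to 44.2%) it did so at 34.3%. Shares by GC were not counted over all shared regions, so nothing particular to members is read from them. Across members, log2 fold correlated with Pearson's r = 0.83 between the +RV libraries, 0.74 between the −RV libraries and 0.70 to 0.72 between conditions (5180 regions that share libraries and are not replicates).

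Members reached middle to high ranks of their lists. The median member peak stood at the percentile 65 and 65.3 of its list by −log10 q in the +RV libraries, and at 49.6 and 50.4 in the −RV libraries. Fold at members was close to that at the 4328 far intronic shared regions, whose medians were 4.9 and 4.88 in +RV and 4.39 and 4.37 in −RV. It was lower than at the 9886 shared regions within 1 kb of a TSS, with medians of 7.42 and 7.45 in +RV and 6.65 and 6.47 in −RV.

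By geometric mean fold over the 4 libraries, members ran between 2.25 and 11.5, with a median of 4.71. The highest was chr7:30373447-30374311, 11.1 kb from Lrfn3. Its fold was 13.1 and 12.1 in +RV libraries and 10.1 and 10.9 in −RV libraries, so the conditions did not overlap. Next came chr12:17881243-17882342 near Hpcal1, with 12.2 and 10.7 in +RV and 11.2 and 10.2 in −RV. The other members of the top 5 were nearest to Morn3, Myt1l and Pisd, with geometric means of 10.84, 10.65 and 10.63. At chr5:123057626-123058478 near Morn3 the fold was 11.5 and 10.5 in +RV and 10.6 and 10.7 in −RV, and the conditions overlapped.

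The widest member was chr14:115040124-115042568 (2445 bp). Its midpoint lay 1533 bp from the annotated start of Mir17hg, the host transcript of the miR-17 to miR-92 cluster, and its nearest protein-coding TSS was that of Gpc5, 50.9 kb away. Peaks covered 2430 and 2313 bases of it in +RV libraries, against 1471 and 1576 in −RV libraries. Fold was 5.75 and 5.31 in +RV and 6.07 and 5.08 in −RV, so width separated the conditions there and fold did not. Of the next 4 widest members, those nearest Ak4 and Ccdc54 lay within 1 kb of the starts of the long non-coding RNAs E130102H24Rik and G730013B05Rik, and those nearest Psd2 and Commd3 did not.

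Peak height hardly varied with distance to genes. Between 10 and 20 kb from a coding TSS lay 1144 members with a median geometric mean fold of 4.82, between 20 and 50 kb 1700 members with 4.74, between 50 and 100 kb 1100 with 4.62, and between 100 and 500 kb 1135 with 4.64. Only 101 members lay farther out, with 4.73. The share of far intergenic regions that all 4 libraries called did vary. It was 33.9% at 10 to 20 kb, 23.7% at 100 to 500 kb and 5.08% beyond 500 kb.

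The farthest member was chr1:101901715-101903382, 1805 kb from the TSS of Cntnap5b. This 1668-bp region had a fold of 6.46 and 6.38 in +RV libraries, against 5.34 and 5.35 in −RV libraries, without overlap. It held 135 +RV and 12 −RV single-cell fragments. A pair 1408 and 1417 kb from Zeb2, chr2:46525017-46525685 and chr2:46533985-46534872, had 10 of 17 and 14 of 17 +RV fragments in B cell-like barcodes. Another far member, near Slc10a2, held only 5 +RV fragments. Members just inside the limit of 10 kb were nearest to Kat7, Gm4881 and Ninj2, with geometric mean folds of 4.52, 5.71 and 4.87, and shared regions just outside it were nearest to Slc38a2, Mppe1 and Aacs, with 8.17, 3.71 and 11.43.

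Many members sat at non-coding genes, which the rule did not exclude. Midpoints of 846 members (16.3%) lay inside a long non-coding RNA gene (lincRNA, antisense or processed transcript), and 368 (7.1%) lay within 1 kb of the start of one. Of 13437 far intergenic regions called in only 1 to 3 libraries, 13.1% lay inside such genes and 3.24% within 1 kb of a start. Members at non-coding starts had a median width of 861 bp and a median geometric mean fold of 5.15, against 4.68 at members beyond 1 kb. Any annotated gene start, pseudogenes included, was within 1 kb of 551 members (10.6%). A microRNA start was within 1 kb of 12 members. Immunoglobulin segments were in or within 1 kb of 17 members and T cell receptor segments of 6.

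Some members lay close to others. Joined over gaps of up to 12 kb, they formed 3838 stretches, of which 2932 were a single member. The other 906 stretches held 2248 members (43.4%), and 33 held at least 5. Dense groups of enhancers are known at cell identity genes, and accessibility was the only mark measured here. The stretch with most members, chr19:37466293-37535480, held 10 over 69.2 kb beside Hhex, a homeobox factor of blood cells, and Exoc6. Of its 357 +RV fragments, 166 were in B cell-like and 93 in macrophage and monocyte-like barcodes, ratios of 2.76 and 2.07 over all other barcodes. A stretch of 7 members over 43.9 kb, chr13:83041504-83085445, lay near Mef2c, a factor of B cell and myeloid development, and its 368 +RV fragments gave a ratio of 3.28 in B cell-like and 3.75 in plasma cell-like barcodes.

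The other 3 stretches were less tied to a class. The stretch chr12:86795515-86837069 near Irf2bpl and Lrrc74a held 9 members and 893 +RV fragments, with ratios between 0.554 and 1.25 over the 8 classes. At chr7:89997889-90042111 near Eed, a Polycomb subunit, 8 members gave 2.03 in macrophage and monocyte-like barcodes. At chr1:155027560-155060126 near Ier5, 7 members gave 1.86 in T cell-like barcodes. By nearest gene, Adgrl2 had 19 members, Myc 18, Btg1 17, and Mef2c and S1pr1 16 each. Myc is a growth regulator with distal blood enhancers, Btg1 an antiproliferative gene and S1pr1 the receptor that lets lymphocytes leave lymphoid organs. The 18 members of Myc were spread over 1286 kb, those of S1pr1 over 262 kb.

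Single nuclei gave a second view of the same regions, from libraries that the selection did not use. Members held 274596 fragments in the +RV set, 2% of nuclear fragments, and 26126 in the −RV set, 1.64% (95% exact intervals 2 to 2.01 and 1.62 to 1.66). Intervals for fragments cover counting error only, with 1 pooled set per condition and no test. Fragment density inside members was 8.57 times (8.51 to 8.64) that in peak-free flanks 4 to 5 kb away in +RV and 7.17 times (7 to 7.34) in −RV. Flank windows that held a peak of any bulk library were left out, and 9472 windows remained. At far intronic shared regions the ratios of inside to flank density were 6.89 and 5.87, and at shared regions within 1 kb of a TSS 19.1 and 15.2. Barcodes of both sets are labelled as selected in part by their share of reads at TSSs. This bears on the near-TSS values and on the share of fragments in members. Far intergenic regions that only 1 to 3 bulk libraries called gave 5.34 in +RV and 4.7 in −RV. The peak-free flanks of members held 0.623 CPM per kb (fragments scaled to the nuclear total of the set) in +RV and 0.61 in −RV. With windows that hold peaks kept, the level was higher. In the 100-bp step 4950 bp before the midpoint it was 0.8047 in +RV and 0.7565 in −RV. All but 1 member had a +RV fragment (median 38 per member). In the shallower −RV set the median was 4 and 368 members (7.1%) had none, which at this depth does not show that they were closed.

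**Figure D2:**
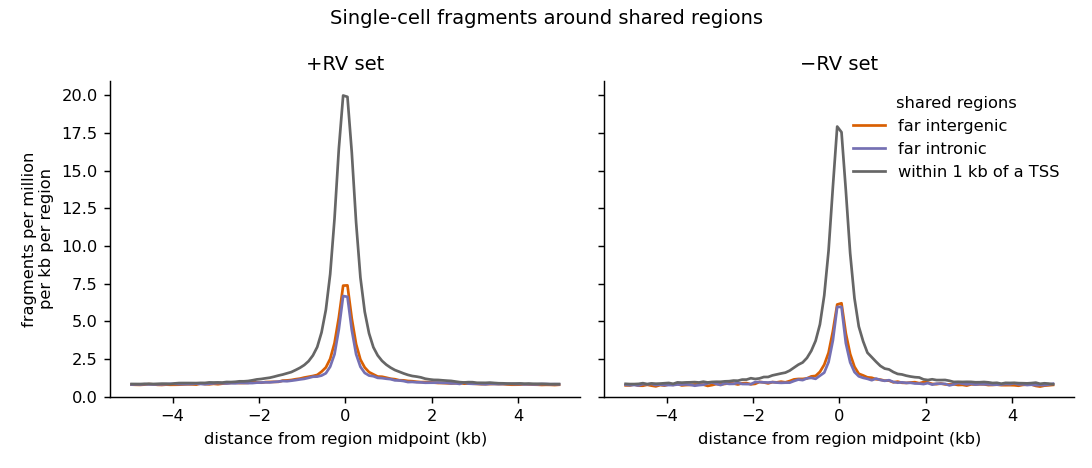
Single-cell fragment CPM per kb per region in 100-bp steps around region midpoints, for far intergenic, far intronic and near-TSS shared regions, in the +RV set (left) and −RV set (right). All classes return to about the same level away from the midpoint, and the far intergenic curve peaks slightly above the far intronic one and well below the near-TSS one, as do the ratios of 8.57, 6.89 and 19.1 in +RV. The curves keep windows that hold peaks, and the flanks behind the ratios leave them out.

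Whether members took more of the +RV or of the −RV fragments depended on fragment length. Over all lengths the share was 1.22 times (1.21 to 1.24) as high in +RV as in −RV. For fragments up to 50 bp, members held 1.7% in +RV and 1.23% in −RV. From 50 to 100 bp, +RV had 1.66% and −RV 1.61%, and with these fragments alone the centre-to-flank ratio was 6.99 in +RV and 7.06 in −RV, the other way round from that over all lengths. The order of the shares turned above 100 bp. From 100 bp to the length of nucleosome core DNA, members took 2.43% of +RV and 2.86% of −RV fragments, and of longer ones 2.77% in +RV and 3.38% in −RV. In both sets fragments above 100 bp fell in members more often than shorter ones. Of member fragments, 28.1% in +RV and 4.73% in −RV were longer than nucleosome core DNA, against 20.4% and 2.29% of all nuclear fragments. The +RV set thus led over all lengths and trailed within the lengths above 100 bp. At far intronic and near-TSS shared regions the order also turned. Up to 50 bp far intronic regions held 1.09% in +RV and 0.878% in −RV, and near-TSS regions 14.9% and 8.92%. Beyond nucleosome core length they held 1.8% and 2.27%, and 20.2% and 25.4%. Near TSSs the order had turned by 50 to 100 bp (9.99% and 10.6%). Nothing particular to far intergenic regions is read from this.

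Barcodes were grouped into 9 clusters from 5-kb bins, leaving out every bin that touched a member. The clusters took 8 class names from marker lists: B cell-like, T cell-like, erythroid-like (2 clusters), macrophage and monocyte-like, stromal-like, endothelial-like, plasma cell-like and pancreatic acinar-like. Of each list, 15 of 15 B cell, 18 of 18 T cell, 20 of 20 erythroid, 15 of 17 macrophage and monocyte, 12 of 12 stromal, 11 of 12 endothelial, 8 of 8 plasma cell and 11 of 11 pancreatic acinar genes were raised at least 1.5-fold in the class they named. Among the 10 leading genes of the macrophage and monocyte-like, stromal-like and larger erythroid-like clusters none came from their list. The T cell-like cluster was also raised 3.12-fold on the NK cell list, against 4.16-fold on its own. The macrophage and monocyte-like cluster was raised 2.48-fold on the neutrophil list, against 3.25-fold on its own. In the other clusters the second list reached 1.94-fold or less. Whether these 2 classes hold NK cells or neutrophils was not tested. Barcodes of both sets were clustered together, the names are rebuilt from sparse data, and no doublet caller was run. The paper read its conventional single-cell data otherwise. It found clusters in +RV, also at lowered fragment cutoffs, but no genes typical of spleen cell types. It concluded that conventional single-cell ATAC-seq does not resolve cell types in FFPE samples. Its cutoffs included a TSS enrichment score, which was not applied here.

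Most members were open more in some classes than in others. A member was taken as leaning to a class when its +RV CPM there was at least 2-fold that of all other barcodes, among 4333 members with at least 20 +RV fragments. At least 1 class was past 2-fold at 3760 of them. One class was past 2-fold at 2186 members (50.5%), 2 classes at 1401 (32.3%) and no class at 573 (13.2%). Among all 28936 regions with at least 20 fragments these shares were 43%, 25% and 27.7%. Among shared regions within 1 kb of a TSS they were 25.8%, 9.28% and 62.8%. Where at least 10 fragments had to be in the class, 3173 members passed in at least 1 class. That total was not counted over all regions. Near-TSS regions held more fragments each (a median of 157 in +RV, against 38 at members), which lowers the scatter of their ratios.

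Lymphoid classes led. B cell-like barcodes were past 2-fold at 1491 members (34.4%), against 19.2% of all regions with at least 20 fragments. For T cell-like barcodes the count was 958 (22.1%, against 14.9%) and for macrophage and monocyte-like barcodes 630 (14.5%, against 11%). Shares were below those of all regions for erythroid-like barcodes, at 273 (6.3%, against 9.34%), stromal-like barcodes, at 373 (8.61%, against 10.5%), and endothelial-like barcodes, at 526 (12.1%, against 13.4%). At far intronic shared regions the shares were 39.3% for B cell-like and 26.3% for T cell-like barcodes. Classes with few barcodes pass 2-fold on a handful of fragments. Plasma cell-like barcodes passed at 992 members (22.9%, against 17.8%) but at 133 (3.07%) where at least 10 of the fragments had to be in the class (against 2.78% of all regions). Pancreatic acinar-like barcodes passed at 266 (6.14%, against 9.89%) and at 56 (1.29%) by the stricter rule (against 2.87%). Endothelial-like barcodes passed at 301 (6.95%) by the stricter rule (against 6.58%), so their share lay below that of all regions by the first rule and above it by the stricter one.

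The −RV set gave the same ratio in nuclei that were not used to call a member leaning. At the 273 members leaning to erythroid-like barcodes in +RV, the pooled −RV ratio was 6.35 (5.78 to 6.99, exact interval), with 1512 −RV fragments in the class and 612 outside it. For B cell-like barcodes it was 4.15 (3.94 to 4.36), for T cell-like 3.93 (3.69 to 4.17), for macrophage and monocyte-like 3.95 (3.61 to 4.32), for endothelial-like 3.92 (3.6 to 4.27) and for stromal-like 3.9 (3.5 to 4.34). It was lower for plasma cell-like, 2.94 (2.64 to 3.26), and pancreatic acinar-like barcodes, 2.37 (2.07 to 2.7). At tested members that did not lean to the class the −RV ratio was 1.02 for B cell-like and plasma cell-like barcodes and below 1 for the other classes, down to 0.411 for erythroid-like ones. Pooled over the members leaning to a class in +RV, the −RV ratio was thus above 2 in all 8 classes.

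**Figure D3:**
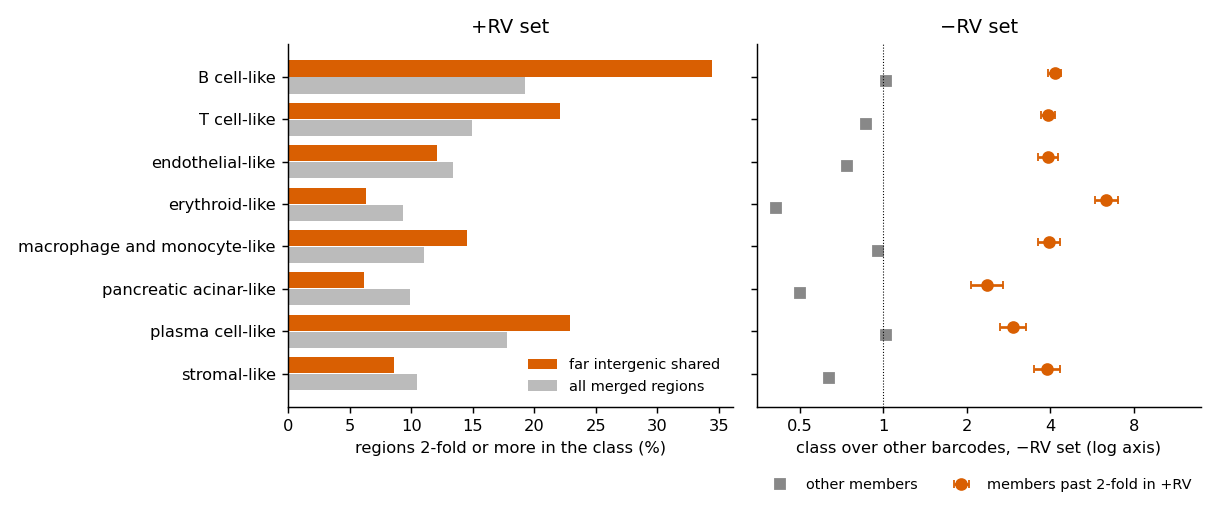
Left, percentage of regions with at least 20 +RV fragments whose +RV CPM was 2-fold or more in a class, for far intergenic shared regions and all merged regions. Right, pooled −RV ratio of the class over other barcodes at members past 2-fold in +RV (circles, bars are 95% exact intervals for counting error) and at other members (squares); every circle lies above 2, between 2.37 and 6.35, and every square at or below 1.02.

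The share of a class's fragments that fell in members was highest in plasma cell-like (2.65% in +RV, 2.3% in −RV) and B cell-like barcodes (2.57% and 2.33%), and lowest in pancreatic acinar-like (1.34% and 1.01%) and erythroid-like barcodes (1.37% and 1.06%). In each of the 8 classes the share was higher in +RV than in −RV. The ratio ran between 1.02 (0.983 to 1.06) in macrophage and monocyte-like and 1.32 (1.25 to 1.4) in pancreatic acinar-like barcodes, and only the interval of the macrophage and monocyte-like class held 1.

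Erythroid-like barcodes had the highest −RV ratio. Red cell precursors depend on GATA1 and on the locus control region that drives the β-globin genes from a distance. RefSeq annotates that region on chromosome 7, and 2 members lay in it. The member chr7:103865751-103866125, at the hypersensitive site 5′HS3, had a fold of 4.02 and 3.83 in +RV libraries and 2.96 and 2.99 in −RV libraries, without overlap. Of its fragments, 71 of 80 in +RV and 15 of 16 in −RV were in erythroid-like barcodes, which held 20.7% and 28% of all fragments. The member chr7:103870684-103871050, at 5′HS4, had a fold of 4.45 and 3.67 in +RV and 3.54 and 3.2 in −RV, with 57 of 65 +RV and 9 of 9 −RV fragments in erythroid-like barcodes. Ratios were 30.2 (15 to 68.7) and 27.3 (12.9 to 66.2) in +RV.

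The neighbouring sites 5′HS1 and 5′HS2 also had peaks in all 4 libraries but lay 6.13 and 7.9 kb from the Hbb-y TSS, inside the 10 kb limit. They held 69 of 69 and 74 of 91 +RV fragments, and 6 of 6 and 12 of 18 −RV fragments, in erythroid-like barcodes. Farther upstream, 5′HS4.1 and 5′HS5 had no peak in any library, 5′HS4.2 had one in 3 libraries and 5′HS6 in 2. The sites 5′HS1 to 5′HS4 were thus called in every library of both conditions. The sequences printed above hold an AP-1-like match at 5′HS3, the kind of site NF-E2 binds in erythroid cells, and a GATA match at 5′HS4.

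At 3 other named members all +RV fragments were erythroid-like. These were chr4:93540574-93541099, 205 kb from Tusc1, with 49 of 49 fragments, chr16:93129445-93129928, 304 kb from Runx1, with 46 of 46, and chr1:170610281-170610824, 20.7 kb from Nos1ap, with 40 of 40. Set against a floor of 3 fragments in all other barcodes, these were at least 62.5-fold, 58.7-fold and 51-fold higher. The −RV set gave 9 of 9, 7 of 8 and 7 of 7. In bulk, fold near Tusc1 was 3.69 and 3.85 in +RV and 5.08 and 4.19 in −RV, so both −RV libraries were the higher. Near Runx1, a master factor of blood formation, it was 5.3 and 5.58 in +RV and 6.02 and 6.11 in −RV, again without overlap and with −RV higher, while near Nos1ap, at 5.06 and 4.59 in +RV and 4.94 and 4.43 in −RV, the conditions overlapped. Erythroid-like barcodes were 18.8% of barcodes in the +RV and 26.1% in the −RV single-cell set, and its part in the bulk order was not tested. The sole member nearest an erythroid list gene, chr11:102375117-102376171, lay 10.4 kb from Slc4a1, the red cell anion exchanger, and 1376 bp from the start of the erythroid lncRNA Bloodlinc. Its fold was 6.8 and 6.3 in +RV and 4.21 and 4.76 in −RV, and 78 of 89 +RV and 16 of 18 −RV fragments were erythroid-like.

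T cell-like barcodes led at members near known T cell genes. At chr11:52313945-52314704, 31.3 kb from Tcf7 (the factor TCF-1 of early and memory T cells), 43 of 47 +RV and 7 of 9 −RV fragments were in T cell-like barcodes, which held 15.3% and 13.3% of fragments. Its ratio was 59.5 (21.6 to 228) and its fold 5.56 and 5.68 in +RV and 4.57 and 5.73 in −RV, so the conditions overlapped. At chr9:44022053-44022668, 21 kb from Thy1, a T cell surface protein, it was 26 of 31 in +RV and 2 of 2 in −RV, and at chr4:44270921-44271692 near Melk 29 of 35 and 4 of 4. Near Lef1, a partner of TCF-1, chr3:130947056-130947769 had 27 of 36 +RV and 3 of 3 −RV fragments in the class and chr3:131056952-131057798 had 16 of 37 and 2 of 2. Of 18 T cell list genes, 4 (Lef1, Tcf7, Cd28 and Thy1) were nearest to 7 members, and 6 of the 6 with enough fragments leaned to T cell-like barcodes, against 22.1% of all tested members.

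B cell-like barcodes led at the member with the highest fold near a marker gene. At chr11:44574649-44575326, 42.3 kb from Ebf1, a factor that sets B cell identity, fold was 9.87 and 9.12 in +RV and 9.6 and 9.19 in −RV, with overlap. Its sequence above holds an octamer, the site of Oct-1 and of the B cell factor Oct-2. Of its fragments, 33 of 48 in +RV and 4 of 4 in −RV were B cell-like, in a class that held 24% and 20.1% of fragments. Among members with at least 30 +RV fragments, the highest B cell-like ratio, 46 (11.6 to 398), was at chr9:51183233-51183760 near Gm32742, with 29 of 31 +RV and 3 of 3 −RV fragments. Others were near Plpp3 (28 of 32 in +RV, 5 of 7 in −RV) and Hhex (26 of 30 and 1 of 3), where the member lies within the stretch of 10. Ebf1 had 6 members, between 36 and 597 kb away. In all, 4 of 6 tested members near B cell list genes leaned to B cell-like barcodes, against 34.4% of all tested members.

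Macrophage and monocyte-like barcodes took 31 of 43 +RV and 2 of 3 −RV fragments at chr15:63616556-63617226 near Gsdmc, a ratio of 15.2 (7.57 to 32.4). Near Kctd1 it was 22 of 30 in +RV and 2 of 2 in −RV and near Pik3cb 23 of 32 and 1 of 2. A member 31.2 kb from Cd163, the haemoglobin scavenger receptor of spleen macrophages, chr6:124273193-124273713, had 19 of 26 +RV fragments and the 1 −RV fragment in the class. Its fold differed most between conditions among named members: 8.09 and 6.71 in +RV, against 3.66 and 3.12 in −RV, without overlap. It and the region near Gsdmc carry a PU.1 match, printed above. Hmox1, the haem oxygenase of red pulp macrophages, also had a member 21.7 kb away, but only 10 of its 52 +RV fragments were in the class, a ratio of 1.4 (0.625 to 2.83). Of 8 tested members near macrophage and monocyte list genes, 2 leaned to the class, against 14.5% of all tested members.

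Endothelial-like and stromal-like barcodes held most +RV fragments at some members, while pancreatic acinar-like barcodes held the smaller part at each member named here. Endothelial-like barcodes, with 7.52% of +RV fragments, took 34 of 36 at chr7:92950773-92951281 near Prcp (6 of 7 in −RV), 29 of 31 at chr18:47585360-47585925 near Sema6a (3 of 3), and 43 of 54 at chr1:41390083-41390889 near Tmem182 (3 of 5). Stromal-like barcodes, with 10.8% of +RV fragments, took 64 of 71 near Astn2 at chr4:66482479-66483445 (2 of 2 in −RV). They also took 34 of 39 at chr18:61665355-61665923, which lay 102 bp from the start of Carmn, the host transcript of miR-143 and miR-145 in smooth muscle. Fold at that member was 5.25 and 4.94 in +RV and 3.84 and 3.94 in −RV, without overlap. Pancreatic acinar-like barcodes, from a gland that lies against the spleen, had 4.08% of +RV fragments and took 11 of 30 near Mycn (2 of 3 in −RV), 13 of 45 near Trib1 (3 of 8) and 25 of 90 near Tmem161b (6 of 10). A member 29.2 kb from Cpb1, pancreatic carboxypeptidase B, had 13 of 49 +RV and 1 of 4 −RV fragments in the class. One 32.9 kb from Prss2, also an acinar list gene, had 1 of 128 +RV and 0 of 14 −RV fragments in it. Of 4 tested members near acinar list genes, 1 leaned to the class, against 6.14% of all tested members.

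Plasma cell-like barcodes, with 3.06% of +RV fragments, took 14 of 33 near Hs1bp3, 13 of 32 near Mocs2 and 14 of 38 near Ctso, while the −RV set held 0 of 1, 0 of 0 and 0 of 1 fragments there. These 3 rest on the +RV set alone. Genes of the plasma cell list were nearest to 22 members, of which 11 belonged to Prdm1, the factor that turns B cells into antibody-secreting cells, and 5 to Irf4. Of the 19 tested, 4 leaned to plasma cell-like barcodes, a share near the 22.9% of all tested members. At chr10:44529107-44530169, 1137 bp from a non-coding transcript start of Prdm1, 3 of 145 +RV and 1 of 11 −RV fragments were in the class (+RV ratio 0.669, 0.136 to 1.99). Prdm1 and Irf4 also act in T cells and macrophages.

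**Figure D4:**
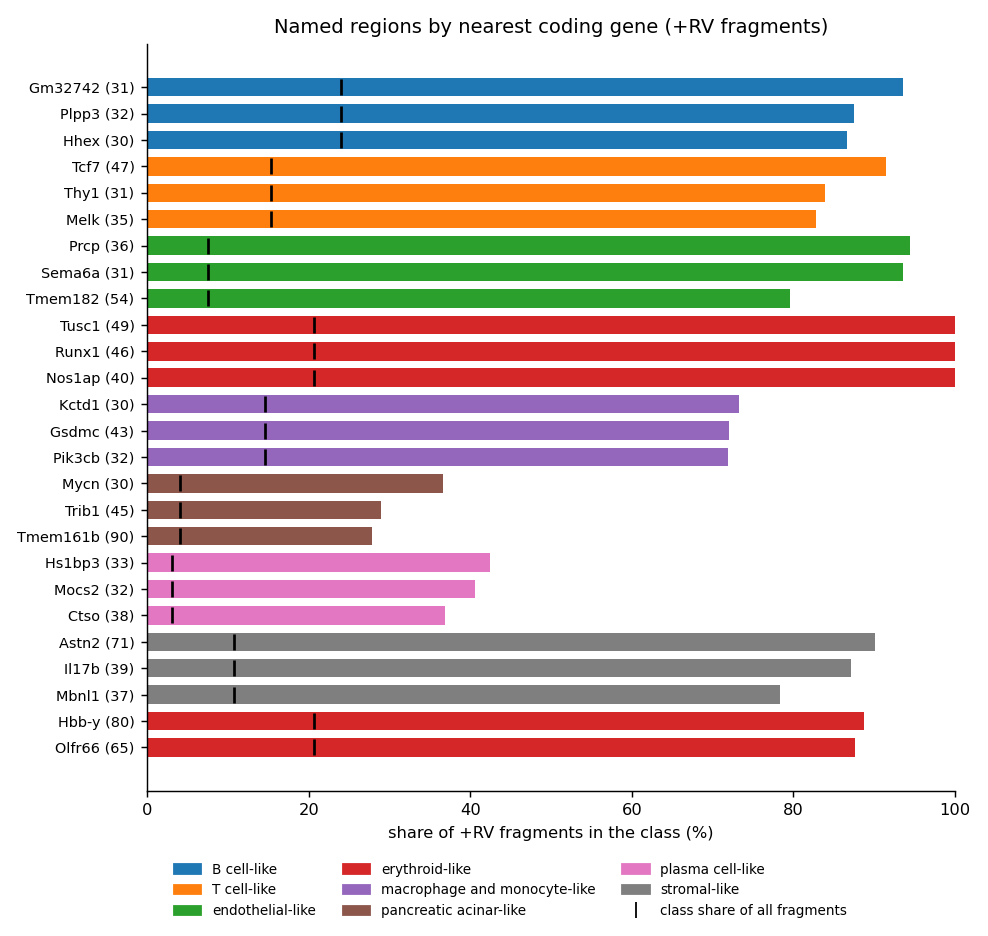
Share of +RV fragments in the named class at the 3 members with the highest ratio per class and at the 2 members of the globin locus control region (last pair), labelled by nearest coding gene with the +RV fragment number. Black ticks mark the class's share of all +RV fragments. The 3 members per class were picked by their +RV ratio, so their bars pass the ticks by that choice. Bars reach 100% at the erythroid-like members near Tusc1, Runx1 and Nos1ap (49, 46 and 40 fragments).

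Lists of other cell types were nearest to few members each. Of 9 NK cell genes, Klrb1c, Eomes and Klre1 were nearest to 5 members. The dendritic cell list had 2 members near Batf3, a factor of cross-presenting dendritic cells, the neutrophil list 1 near Csf3r, and the megakaryocyte list none. Endothelial genes (Kdr, Cdh5 and Stab2) were nearest to 4 members, of which 0 of 2 tested leaned to endothelial-like barcodes (12.1% of all tested members did), and stromal genes (Dcn and Col1a2) to 4, of which 2 of 4 leaned to stromal-like ones (8.61% of all). Among 17 members at immunoglobulin segments, 8 of 11 tested leaned to B cell-like barcodes, against 34.4% of all tested members and 19.2% of all regions. Among 6 at T cell receptor segments, 4 of 5 tested leaned to T cell-like ones, against 22.1% and 14.9%.

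Members past 2-fold in no class were wider and more often at non-coding promoters. These 573 had a median width of 928 bp, a median geometric mean fold of 5.59 and 17.8% within 1 kb of a long non-coding RNA start, against 654 bp, 4.71 and 7.1% over all members. All members include the 847 with under 20 fragments, which were not tested and widen this contrast. Those had a median width of 497 bp, a median fold of 4.35 and 2.24% at such starts. The 573 also held a median of 87 +RV fragments, against 38 over all members, and ratios from more fragments scatter less. The 5 members with the highest fragment density per kb were of this kind. They lay within 1 kb of the starts of the long non-coding RNAs 4932412D23Rik, 1810026B05Rik, Gm6410, Snhg8 (a snoRNA host) and 2310001H17Rik. At chr16:42874720-42876541, 32 kb from Zbtb20, fold was 6.89 and 6.46 in +RV and 6.92 and 7.1 in −RV, and 1067 +RV and 119 −RV fragments were found. The member at 1810026B05Rik, chr7:73558194-73559248, had a fold of 7.45 and 8.02 in +RV and 8.22 and 7.94 in −RV, and its sequence above shows a GC box. At the first both −RV libraries lay just above both +RV libraries, and at the second the conditions overlapped. No class ratio at these 5 members was over 1.91.

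Members resembled far intronic regions in sequence more than promoters. In the 400-bp window at the midpoint, median GC was 48% at members, 48% at far intronic shared regions and 64.8% at shared regions near a TSS. A ratio of observed to expected CpG above 0.6, as in CpG islands, was found at 8.03% of members, 2.77% of far intronic and 80.6% of near-TSS shared regions. Repeats made up 13.8% of member bases on average, against 22.7% in far intergenic regions that only 1 to 3 libraries called. The CTCF core motif was found in 215 members (4.15%, 3.62 to 4.73), against 2.89% of far intronic shared, 0.86% of near-TSS shared and 4.89% of partly called far intergenic windows.

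Motifs were searched on both strands by exact letters: AGATAA for GATA factors, TGTGGTT for RUNX, GAGGAAGT for PU.1, CCGGAAGT for ETS, ACAGGAAG for ERG-type ETS, GGAANNGAA for ETS-IRF composites, ATGCAAAT for the octamer, TCCCNNGGG for EBF, ATCAAAG for TCF, TGANTCA for AP-1, AAANNGAAA for IRF, TTGCNNCAA for CEBP, ACATTCC for TEAD, CCACACCC for KLF, CAGCTG and also CAGGTG for E-boxes and GGGCGG for the GC box. The ETS, ERG, PU.1 and ETS-IRF letters share a GGAA core and can overlap, as can ETS-IRF and IRF. CTCF was searched by its known core. Matches differed with the class a member leaned to. Shares of all members below include the 847 with under 20 fragments, which could not lean to a class. GATA was in 47.3% of the 273 erythroid-leaning windows, against 19.8% of all member windows, 19.2% of far intronic and 5.56% of near-TSS windows. PU.1 was in 22.2% of macrophage and monocyte-leaning windows, 16.8% of B cell-leaning ones and 5.86% of erythroid-leaning ones, against 13.1% of all members, 13.9% of far intronic and 4.29% of near-TSS windows. RUNX was in 26.6% and ERG-type ETS in 24.5% of T cell-leaning windows, against 16.9% and 14.8% of all members, 18% and 17.6% of far intronic and 4.5% and 4.39% of near-TSS windows.

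The octamer was in 6.98% of B cell-leaning and 6.45% of plasma cell-leaning windows, against 4.27% of all members, 4.07% of far intronic and 1.46% of near-TSS windows. EBF letters were in 10.1% of B cell-leaning windows, against 7.45% of all members and 11.8% of near-TSS windows, and the ETS-IRF composite in 22.1% of B cell-leaning and 26.2% of macrophage and monocyte-leaning windows, against 18.1% of all members and 9.14% of near-TSS windows. TCF letters were in 9.08% of T cell-leaning windows, against 6.43% of all members and 2.15% of near-TSS windows. AP-1 was in 20.2% of endothelial-leaning windows, against 14.6% of all members and 5.03% of near-TSS windows. CTCF was in 4.15% of all members, and in 1.48% of B cell-leaning and 1.43% of macrophage and monocyte-leaning windows. T cell-leaning, plasma cell-leaning and erythroid-leaning windows had it in 2.09%, 3.53% and 4.03%. It was in 9.4% of pancreatic acinar-leaning, 7.41% of endothelial-leaning and 6.43% of stromal-leaning windows, and in 6.63% of the members past 2-fold in no class. The GC box was in 39.1% of those 573 windows, against 15.5% of all members and 73.5% of near-TSS windows. A match is a run of letters, and no factor binding was measured.

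**Figure D5:**
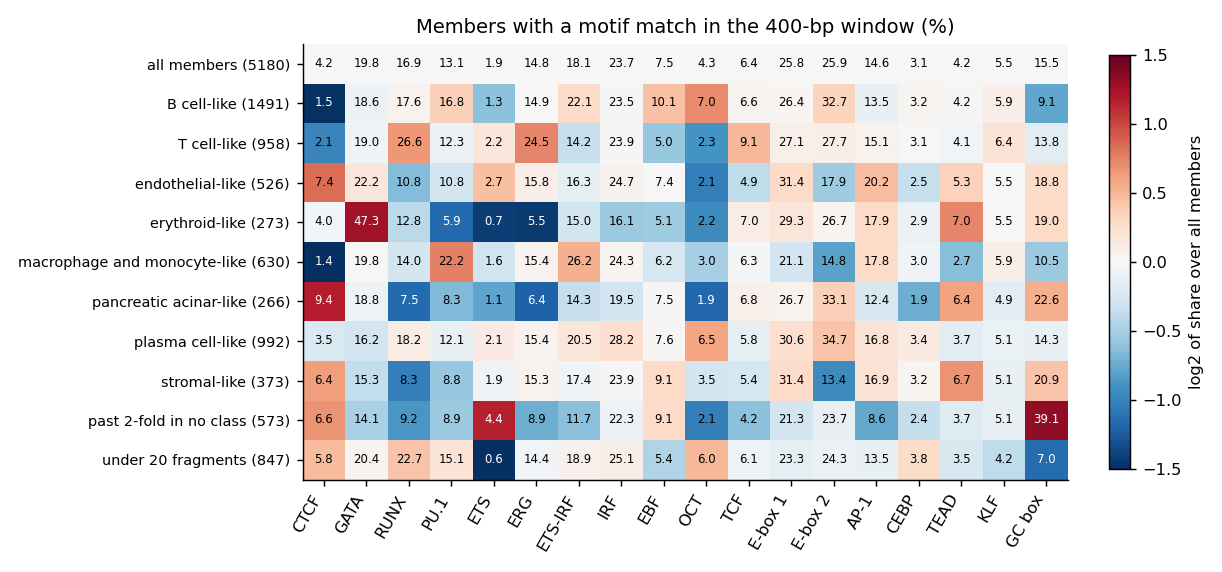
Percentage of members with a motif match in the 400-bp window at the midpoint, for all members, members past 2-fold in each class, in no class, and with under 20 fragments (numbers of members in brackets). Colour gives the log2 of each share over that of all members; GATA stands out in erythroid-like (47.3%), PU.1 in macrophage and monocyte-like (22.2%), RUNX in T cell-like (26.6%) and the GC box in the no-class group (39.1%). E-box 1 is CAGCTG and E-box 2 is CAGGTG.

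Few members overlapped a regulatory element annotated in RefSeq. From experiments, RefSeq annotates 1037 enhancers, silencers, locus control regions and enhancer blocking elements on these chromosomes. Of the 5180 members, 42 (0.811%) overlapped at least 1 of them. The share at other regions was not counted and few elements are annotated, so nothing particular to members is read from it. Many of these elements come from embryo reporter assays in heart, brain or limb. An element active in embryonic heart near Smad6, chr9:64045073-64045664, had 48 of 64 +RV fragments in erythroid-like barcodes, and one near Prrc2b, chr2:32128061-32128534, had 42 of 48. In the stretch near Ier5, chr1:155039106-155039607 had 42 of 70. An element tested in EL4 and Jurkat T cells near Hdhd5, chr6:120566854-120568058, had 51 of 101 +RV fragments in B cell-like and 16 in T cell-like barcodes. These 4 members were chosen after their values were seen.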

How the data were processed

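Bulk and single-cell ATAC-seq of snap-frozen FFPE spleen from C57BL/6J mice was analysed from the peak lists and fragment files. For each bulk library the authors deposited a narrowPeak list on mm10, made with MACS2 after removal of blacklisted regions per the study's methods, with a score, a fold ratio of the summit over local background, and p- and q-values as −log10. The submitters' processing notes also name Bowtie2 2.4, Picard 1.119, SAMtools 1.15 and SEACR 1.3, without roles. For each single-cell condition the deposited file held fragment positions, a barcode and a read count, pooled over its libraries. The score, −log10 p and read count columns entered no result.

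Peaks of the 4 lists were merged at 1 bp overlap, and positions came from GENCODE M21 (54327 coding TSS positions, 21951 genes). The highest peak per member and library gave the fold. A fragment was counted where its midpoint fell in a region. The deposited sets are labelled as selected by unique fragments and by FRiT, the paper's fraction of reads in the TSS region. Barcodes with at least 500 fragments, the minimum seen in the files, were clustered on 5000-bp bins by latent semantic indexing (20 components, 20 neighbours, Leiden resolution 1), leaving out 4839 bins that touched members. A cluster was named where a marker list of at least 3 raised genes had the highest ratio of all lists, 1.5 or more, in windows reaching 5000 bp upstream of its genes, and no other list had more genes among the 10 leading genes. Class ratios used no pseudocount, with a floor of 3 fragments where the other barcodes had none. Sequences came from the RefSeq GRCm38.p6 genome.

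Named regions were the 5 widest, highest, farthest and densest members, the 5 largest stretches, the 3 highest class ratios per class among members with at least 30 +RV fragments, up to 2 members per marker list, 3 members on each side of the distance limit, and members in an annotated locus control region. One of the farthest members is not reported here. Members and lists were chosen with earlier results of these data known. Intervals at members picked for their class ratio do not allow for that choice. No test was run. Alternatives were the peak threshold and merging, the distance limit, the annotation, single libraries, fragment lengths, barcode depth, flanks and clustering. Python 3.11.15, numpy 2.4.6, pandas 2.3.3, scipy 1.17.1, pysam 0.24.0, igraph 0.11.9 and matplotlib 3.10.9 were used, and the statistics were tested on simulated data.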

Additional observations from a re-analysis of the deposited data

How the results depend on the processing

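The direction of the +RV minus −RV difference in median fold and in bases under peaks was kept under every alternative run. Leaving out 1 bulk library gave 5287 to 6246 members, a fold difference of 0.532 to 0.586, and centre-to-flank ratios of 8.36 to 8.9 in +RV and 7 to 7.48 in −RV. Counting all annotated genes left 2929 members, with a fold difference of 0.602 and ratios of 7.99 in +RV and 6.71 in −RV. A limit of 20 kb gave 0.604, 8.41 and 6.94, a log2 +RV over −RV ratio of member fragments of 0.31 and CTCF in 3.57%. The same number of best-ranked peaks per library gave 0.672, 8.87 and 7.4, and a −log10 q of at least 5 gave 8.81 and 7.34. The ratios were 8.47 in +RV and 7.1 in −RV with peaks merged over 150 bp, and 8.49 and 7.09 with the TSSs of all transcripts, the last chosen after seeing the data. Counting both fragment ends gave 8.44, 7.13 and a log2 ratio of 0.27. Barcodes with at least 1000 fragments gave 7.81, 6.11 and 0.42, and a farther flank 9.49 in +RV and 7.83 in −RV. Fragments over 50 and up to 100 bp gave 6.99 in +RV and 7.06 in −RV, the other order from all lengths, and a log2 ratio of 0.04, against 0.29. By length, chosen after seeing the data, the log2 ratio was 0.47 up to 50 bp and reversed to -0.24 from 100 bp to the length of nucleosome core DNA and -0.29 beyond it. The cause was not tested. CTCF fell to 2.99% in a window of 100 bp on each side, which holds fewer bases. Members past 2-fold in any class numbered 2105 of 2455 with 50 to 100 bp fragments and 667 of 815 with deep barcodes, where fewer members were tested. The plasma cell-like class was not named at resolution 0.5 or without the 5% deepest barcodes. No paired analysis was possible because the results come from no test and the sources do not say whether libraries of 1 number share a tagmented sample, although bulk samples were divided between conditions after tagmentation. By number, median fold differed by 0.53 and 0.60 (+RV minus −RV) and median bases under peaks by 128.5 and 110.5.

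Limits are the 2 technical libraries per condition in bulk, 1 pooled set per condition in single nuclei, the unknown bulk read depth, and a −RV set with a median of 4 fragments per member, at which a closed and a thinly sampled region look the same. Members are far from coding genes only in the annotation used.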

Other observations

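Some members leaned to a pair of classes. Of the 992 members past 2-fold in plasma cell-like barcodes, 446 (45%) were also past 2-fold in B cell-like barcodes, which are 29.9% of the B cell-leaning members. B cell-like and macrophage and monocyte-like barcodes shared 191 members (30.3% of those leaning to macrophage and monocyte-like and 12.8% of those leaning to B cell-like barcodes). Stromal-like and endothelial-like barcodes shared 141 (37.8% and 26.8%). Erythroid-leaning members overlapped little with the lymphoid ones, with 3 shared with B cell-like and 6 with T cell-like barcodes. These overlaps were not set against chance.

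Members with a CTCF match, 215 in all, had a median width of 586 bp and a median distance of 32.7 kb to a coding TSS, against 654 bp and 43.3 kb over all members. RUNX matches were found in 7.91% of them, against 16.9% of all members, and GATA matches in 16.3%, against 19.8%.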
